A study of Homo sapiens with 12 samples.

Results

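The ALDH1B1-expressing clone of SW480 cells was set against the parental SW480 line kept in DMSO, which used 6 of the 12 libraries of the study, 3 on each side. The libraries were taken by their labels, and a gene entered the comparison when both deposited count tables listed it, which held for 26814 of the 33331 genes listed in either. A filter on low counts left 18104 genes that were tested. SW480 is an established line from a human colorectal adenocarcinoma, and the product of ALDH1B1 is an enzyme of the mitochondrial matrix that oxidises aldehydes to carboxylic acids.

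Polyadenylated RNA was sequenced from 4 groups of SW480 cultures. The clone is an SW480 clone with ALDH1B1 knocked out into which an ALDH1B1 construct was put back, and it is called the clone. The same knockout clone carrying EGFP, a fluorescent protein used as a control, is called the EGFP clone. The parental line received 2 µM of an ALDH1B1-selective inhibitor or the solvent DMSO for 24 h, and the parental line without further words means the cultures in DMSO. For the clone the labels name no solvent, and the sources used here give neither the promoter of the construct nor the way the knockout was made. The clone and the parental line therefore differ in clone, construct and vehicle at once, and these cannot be told apart. The series design gives 3 biological replicates per condition, so p-values measure the spread between cultures of 1 clone and 1 line, not between clones.

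Intestinal epithelial cells hold together through adherens junctions built on E-cadherin, tight junctions built on claudins and desmosomes anchored to keratins, and absorptive cells carry a brush border of actin bundles crosslinked by villin. Transcription factors of the HNF4 and CDX families keep the intestinal programme on. In an epithelial to mesenchymal transition, repressors of the SNAI and ZEB families bind E-box sequences in epithelial genes, and vimentin and matrix genes come on. Neurons and endocrine cells share a separate set of genes for regulated secretion, in which complexins and SNARE proteins time the fusion of vesicles and granins fill dense-core granules. Colorectal carcinomas can carry parts of each of these programmes.

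The 12 libraries held between 32617089 and 39018926 counted reads. Replicates differed by more than sampling noise, and a chi-square of read counts over genes, per degree of freedom, ran from 3.01 to 4.90 between clone libraries. Of the DMSO libraries, replicate 2 stood apart, with 9.54 against replicate 1 and 6.47 against replicate 3, while replicates 1 and 3 gave 3.50. Reads of mitochondrially encoded genes made up 3.33% to 3.59% of the clone libraries, against 4.53% to 5.12% of the parental ones. Genes with a summed exon length under 800 nt had a median log2 fold change of -0.23 over 417 genes with a mean of at least 1 CPM, against 0.01 to 0.04 in the longer classes. The part of these differences in the results was not tested. Levels are given as CPM, the read count relative to the library's total after TMM scaling over all 12 libraries. CPM does not correct for gene length, so levels are compared within a gene and not between genes.

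The labels were checked on ALDH1B1 (ENSG00000137124), which lies on the plus strand of chromosome 9 from 38392664 to 38398661 in hg38. It stood at 104, 97.8 and 100.3 CPM in the clone, against 45.4, 53.02 and 50.2 CPM in the parental line. The groups did not overlap, with a log2 fold change, here always clone minus parental, of 1.01 (SE 0.053, n = 3 per group, edgeR quasi-likelihood test, Benjamini-Hochberg adjusted p = 1.5e-11). The EGFP clone held 18.5, 18.8 and 17.9 CPM and the parental line with inhibitor 49.9, 50.4 and 50.97 CPM. Reads of the construct and of the native gene are not separated in the counts.

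Most of the measured transcriptome differed between the clone and the parental line. At an adjusted p under 0.05 (edgeR quasi-likelihood test, Benjamini-Hochberg adjustment), 14137 of 18104 genes were called, 78.1%, with 7043 higher (38.9%) and 7094 lower (39.2%) in the clone. A change of at least 2-fold was called in 6640 genes, 36.7%, of which 3290 were higher (18.2%) and 3350 lower (18.5%), so list counts below are read against these shares. At least 16-fold changes were called in 467 genes that were higher and 569 that were lower. Without DMSO replicate 2 the calls were 7159 higher and 7250 lower. The values of the 2 groups did not overlap in 79.5% of all genes, so a lack of overlap is the usual case here. The median log2 fold change over all genes tested was -0.02. For scale, the clone against the EGFP clone gave calls in 14.2% of 19075 genes and at least 2-fold changes in 1.04%.

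The 5 genes taken as cell state markers moved in different directions. VIL1, which encodes villin, stood at 0.219, 0.0528 and 0.164 CPM in the clone, against 351, 336 and 344 CPM in the parental line (log2 fold change -11.22, SE 0.11). Only 15 VIL1 reads were counted over the clone libraries, against 37368 over the parental ones, and 44.00% of the VIL1 exon length overlaps other genes, mainly USP37, so its exact level is uncertain. CDH1, the E-cadherin gene, stood at 4.98, 4.62 and 5.07 CPM in the clone, against 35.9, 42.5 and 38.5 CPM in the parental line (log2 fold change -3.00, SE 0.084), and every clone library lay below every parental one. In bulk RNA, fewer cells with a transcript and less of it per cell cannot be told apart. ROBO1, a receptor that steers axons and migrating cells away from SLIT ligands, stood at 0.470, 0.687 and 0.822 CPM in the clone, against 496, 533 and 499 CPM in the parental line (log2 fold change -9.58, SE 0.086).

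VIM, which encodes the mesenchymal intermediate filament protein vimentin, stood at 308, 315 and 328 CPM in the clone, against 13.98, 16.2 and 13.4 CPM in the parental line (log2 fold change 4.44, SE 0.062). Of its exon length 24.4% overlaps other genes, VIM-AS1 the most, and the sources used here do not state a strand setting for the counting. CPLX2, which encodes complexin 2, a clamp and trigger of vesicle fusion, stood at 767, 753 and 722 CPM in the clone, against 6.43, 5.82 and 6.60 CPM in the parental line (log2 fold change 6.88, SE 0.058). The EGFP clone lay on the clone's side in all 5 markers, with 0.472 ± 0.0528 CPM of VIL1, 5.66 ± 0.274 of CDH1, 0.823 ± 0.236 of ROBO1, 281 ± 6.08 of VIM and 661 ± 32.6 of CPLX2 (mean ± SD, n = 3). The parental line with inhibitor lay on the other side, with 398 ± 5.80 CPM of VIL1, 33.7 ± 0.866 of CDH1, 510.4 ± 10.5 of ROBO1, 13.96 ± 0.915 of VIM and 7.23 ± 0.643 of CPLX2. The largest adjusted p of the 5 was 3.2e-15 (edgeR quasi-likelihood test, Benjamini-Hochberg).

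**Figure D1:**
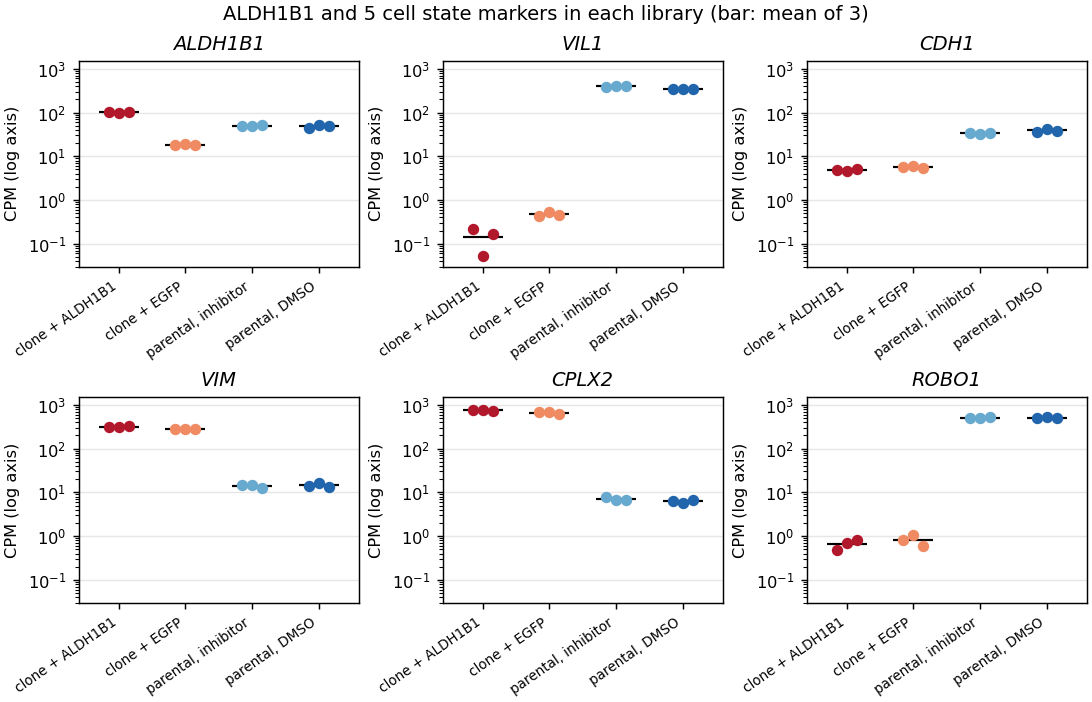
Level of ALDH1B1 and 5 cell state markers in CPM (log axis, the same in each panel), with 1 point per library and a bar at the mean of 3 libraries, for the clone with ALDH1B1, the clone with EGFP, the parental line with inhibitor and the parental line in DMSO. VIL1, CDH1 and ROBO1 were low and VIM and CPLX2 high in both states of the clone, while ALDH1B1 was at about 100 CPM only in the clone carrying its construct.

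Markers of simple epithelium, picked after their values were seen, were present in both lines. KRT8 and KRT18, the keratin pair of simple epithelia, stood at 4402 ± 140.1 and 2453 ± 81.98 CPM in the clone, against 3594 ± 120.4 and 2014 ± 48.9 CPM in the parental line (log2 fold change 0.28, SE 0.033 for KRT8 and log2 fold change 0.27, SE 0.034 for KRT18). EPCAM, an epithelial adhesion molecule, was at 129.8, 139 and 135 CPM in the clone, against 744, 791 and 766 CPM in the parental line (log2 fold change -2.52, SE 0.042). Each clone library was below each parental one for EPCAM and above each for KRT8 and KRT18, with adjusted p of at most 1.1e-06 (edgeR quasi-likelihood test, Benjamini-Hochberg).

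**Figure D2:**
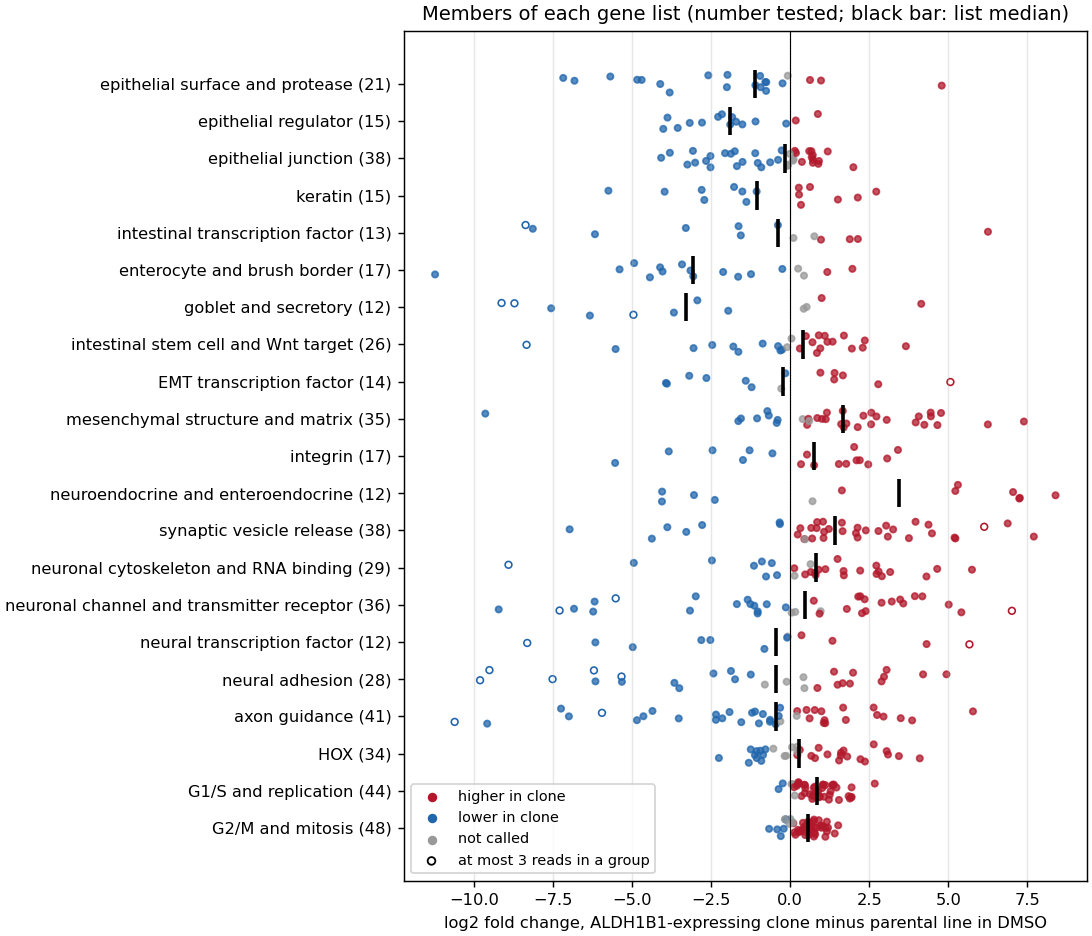
log2 fold change (x axis, clone with ALDH1B1 minus parental line in DMSO) of each tested member of 21 gene lists, 1 point per gene, red for higher, blue for lower and grey for not called, with the list median as a black bar. Open circles are genes with at most 3 reads over the 3 libraries of a group, whose position depends on the model. The lists of neuroendocrine, mesenchymal and synaptic vesicle genes had medians of 3.43, 1.66 and 1.43, and those of goblet, brush border and epithelial regulator genes -3.30, -3.06 and -1.89.

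The epithelial junction list split. Of 38 members tested, out of 39 that were all listed in both tables, 19 fell and 13 rose, and 15 fell at least 2-fold while 2 rose that far. The list median was -0.18, beside -0.02 over all genes. The desmosomal cadherin DSC2 stood at 2.10, 1.80 and 2.19 CPM in the clone, against 34.5, 34.05 and 33.4 CPM in the parental line (log2 fold change -4.08, SE 0.094), the tight junction claudin CLDN1 at 27.7, 27.6 and 29.2 CPM in the clone, against 399, 382 and 390.1 CPM in the parental line (log2 fold change -3.80, SE 0.049) and the adhesion molecule NECTIN4 at 1.03, 0.872 and 0.685 CPM in the clone, against 7.92, 7.81 and 8.61 CPM in the parental line (log2 fold change -3.25, SE 0.17). All 3 were lower in every clone library. Another nectin, NECTIN2, went the other way at 126, 121 and 122 CPM in the clone, against 28.7, 32.6 and 30.5 CPM in the parental line (log2 fold change 2.00, SE 0.051), as did EVPL, which encodes the cornified envelope protein envoplakin, at 76.3, 74.4 and 68.5 CPM in the clone, against 30.4, 32.2 and 32.7 CPM in the parental line (log2 fold change 1.19, SE 0.055). Scaffold genes of the junction plaque, named here after their values were seen, had smaller log2 fold changes, 0.60 (SE 0.048) for the zonula occludens gene TJP1, 0.72 (SE 0.033) for the beta-catenin gene CTNNB1 and 0.19 (SE 0.034) for the alpha-catenin gene CTNNA1. The desmosome plaque gene DSP was not called at -0.07 (SE 0.049). Among the genes called in this paragraph the adjusted p was at most 0.0001 (edgeR quasi-likelihood test, Benjamini-Hochberg).

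Epithelial surface and protease genes were mostly lower. Of 21 tested, out of 24, 17 fell, 11 of them at least 2-fold, and 3 rose, with a median of -1.10. S100A14, a calcium-binding protein of epithelia, stood at 0.720, 1.11 and 0.685 CPM in the clone, against 112, 128 and 125 CPM in the parental line (log2 fold change -7.17, SE 0.10). The membrane serine protease gene TMPRSS2 stood at 0.188, 0.343 and 0.603 CPM in the clone, against 44.2, 42.1 and 44.3 CPM in the parental line (log2 fold change -6.82, SE 0.15) and CDH17, the cadherin of intestinal epithelium, at 0.971, 0.238 and 0.548 CPM in the clone, against 28.4, 31.4 and 27.5 CPM in the parental line (log2 fold change -5.68, SE 0.19). The EGFP clone held 0.904 ± 0.196 CPM of S100A14. The adjusted p was at most 2.2e-14 for these 3 genes (edgeR quasi-likelihood test, Benjamini-Hochberg).

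Most regulators that hold the epithelial state on were lower. Of 15 tested, out of 17, 13 fell, 12 of them at least 2-fold, and 2 rose, with a median of -1.89. ESRP1, which directs epithelial splice forms, stood at 18.3, 17.9 and 15.7 CPM in the clone, against 275, 280.1 and 274 CPM in the parental line (log2 fold change -4.01, SE 0.055). The ETS family factor ELF3 stood at 5.42, 4.09 and 5.07 CPM in the clone, against 72.7, 65.5 and 73.3 CPM in the parental line (log2 fold change -3.88, SE 0.088). The 3 FOXA genes, whose products open chromatin at endodermal genes, all fell, with log2 fold changes of -3.55 (SE 0.083) for FOXA3, -2.16 (SE 0.086) for FOXA2 and -1.71 (SE 0.19) for FOXA1. KLF5, a factor of proliferating gut epithelium, had a log2 fold change of -2.28 (SE 0.043) and OVOL2, a repressor of mesenchymal genes, one of -1.89 (SE 0.10). ESRP2, the paralog of ESRP1, was at 43.5, 43.98 and 43.95 CPM in the clone, against 46.4, 49.8 and 46.2 CPM in the parental line, a log2 fold change of -0.13 (SE 0.051). Its call ended in 8 of the alternatives run, with adjusted p between 0.0567 and 0.123 (Benjamini-Hochberg, edgeR quasi-likelihood test or DESeq2), one of them without DMSO replicate 2 (adjusted p = 0.0891). KLF4 and EHF, a Krüppel-like and an ETS factor of epithelia, rose by 0.88 (SE 0.073) and 0.18 (SE 0.052) on the log2 scale, and the call of EHF ended without DMSO replicate 1 (edgeR quasi-likelihood test, Benjamini-Hochberg adjusted p = 0.0904). With all 6 libraries, the adjusted p of the regulators named was at most 0.034 (edgeR quasi-likelihood test, Benjamini-Hochberg).

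**Figure D3:**
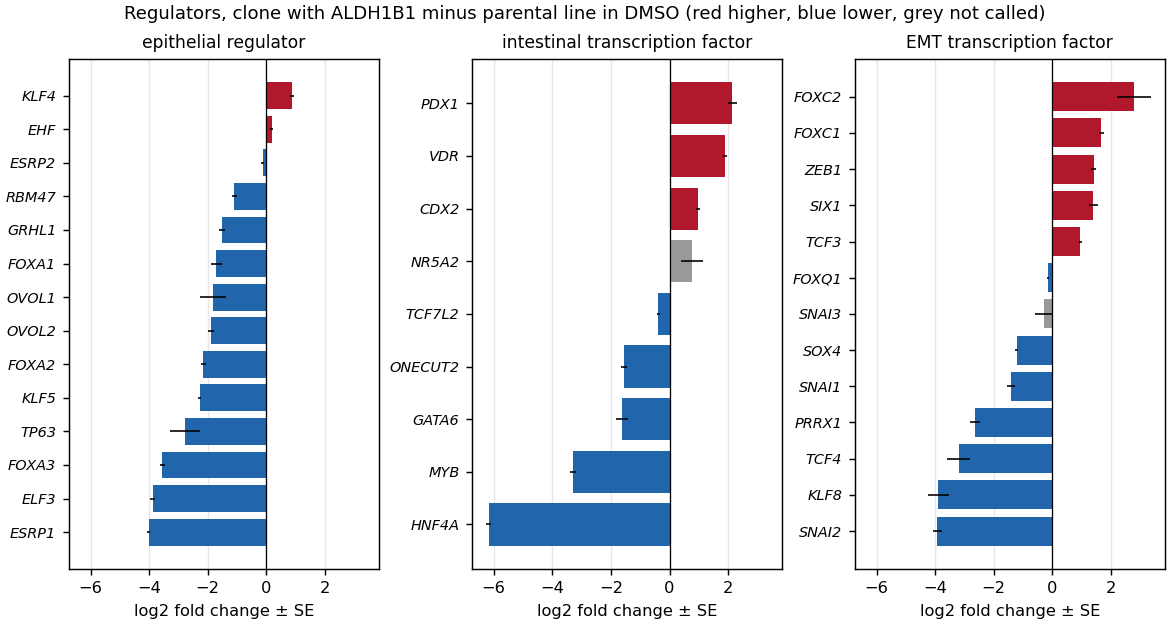
log2 fold change with its standard error (x axis, clone with ALDH1B1 minus parental line in DMSO, n = 3 per group) of regulators of epithelial state, intestinal identity and epithelial to mesenchymal transition, with HNF4G and GSC left out because a group held at most 3 reads. ESRP1, ELF3, HNF4A and SNAI2 were among the largest falls shown, and PDX1, FOXC1 and ZEB1 were higher in the clone.

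The SNAI and ZEB repressors bind the E-box CACCTG, so its letters were searched on both strands of the 300 bases around each gene start (250 before and 50 after, RefSeq, GRCh38.p14). It was present in 5625 of 27305 promoters, 20.6%. In the lists it was present in 9 of 25 epithelial junction promoters, 9 of 13 epithelial surface promoters and 3 of 10 epithelial regulator promoters. Among lists that mostly fell, 8 of 25 brush border and 4 of 16 goblet promoters held it. Among lists that mostly rose, 10 of 35 synaptic vesicle, 3 of 27 mesenchymal, 3 of 20 neuroendocrine, 4 of 37 G1/S and 8 of 41 G2/M promoters did. The promoter counts take each list member with an entry, also those whose expression was not tested, while the direction of a list comes from its tested members. Whether the share goes with the direction of change was not tested. A match describes the letters only, and list members without an entry in the promoter table, CDH1, EPCAM and VIL1 among them, were not searched. The motif was also present in promoters of genes that rose, among them CHGA, UNC13A, WNT5A, NFASC, KRT5 and ZEB1, picked after hits and values were seen. The 250 bases before the start are printed for 3 epithelial genes that fell, chosen after hits and values were seen, with CACCTG or its reverse complement CAGGTG in capitals. They are AP1M2, a clathrin adaptor subunit of epithelial polarised sorting (4.29, 4.15 and 4.17 CPM in the clone, against 113, 123 and 121 CPM in the parental line), CRB3, an apical polarity protein (7.83, 7.34 and 6.71 CPM in the clone, against 27.5, 26.3 and 25.7 CPM in the parental line), and S100A14, described above. The first motif base lies at -57, -27 and -15 in AP1M2, at -228, -208, -147, -89 and -60 in CRB3 and at -14 in S100A14, counted from the gene start.
AP1M2, chr19:10587313-10587562, minus strand: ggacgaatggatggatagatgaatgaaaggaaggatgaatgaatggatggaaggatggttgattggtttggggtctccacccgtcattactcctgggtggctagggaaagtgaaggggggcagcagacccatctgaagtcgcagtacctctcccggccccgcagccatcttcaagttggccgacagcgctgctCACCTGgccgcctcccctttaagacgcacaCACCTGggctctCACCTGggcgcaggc
CRB3, chr19:6464021-6464270, plus strand: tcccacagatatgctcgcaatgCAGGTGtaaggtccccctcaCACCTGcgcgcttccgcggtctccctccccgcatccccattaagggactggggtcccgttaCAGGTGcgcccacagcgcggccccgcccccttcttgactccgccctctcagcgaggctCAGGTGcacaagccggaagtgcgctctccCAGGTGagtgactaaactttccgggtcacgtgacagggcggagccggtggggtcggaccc
S100A14, chr1:153616326-153616575, minus strand: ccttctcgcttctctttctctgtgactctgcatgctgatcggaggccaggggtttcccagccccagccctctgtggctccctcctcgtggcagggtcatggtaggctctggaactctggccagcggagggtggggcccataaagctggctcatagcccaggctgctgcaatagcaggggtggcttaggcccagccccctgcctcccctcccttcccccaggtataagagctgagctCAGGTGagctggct

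The log2 fold changes were -4.83 (SE 0.065) for AP1M2 and -1.87 (SE 0.081) for CRB3, with adjusted p of at most 1.1e-12 (edgeR quasi-likelihood test, Benjamini-Hochberg).

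Keratins, the intermediate filament proteins of epithelia, changed without a common direction. Of 15 tested, out of 17, 8 fell, all at least 2-fold, and 7 rose, 3 of them at least 2-fold, with a median of -1.06. The list does not hold every keratin gene, and KRT71, described below among the largest rises, is not in it. KRT16 and KRT17, keratins of stressed and wounded epithelia, were lower. KRT16 stood at 0.0939, 0.238 and 0.137 CPM in the clone, against 8.37, 8.61 and 9.07 CPM in the parental line (log2 fold change -5.75, SE 0.23), and KRT17 at 4.73, 5.02 and 4.60 CPM in the clone, against 60.6, 87.2 and 75.9 CPM in the parental line (log2 fold change -3.97, SE 0.12). KRT5, the basal keratin of stratified epithelia, was already abundant in the parental line and stood at 5072, 4834 and 4746 CPM in the clone, against 1696, 1688 and 1722 CPM in the parental line (log2 fold change 1.51, SE 0.033). KRT23 stood at 627, 637 and 611 CPM in the clone, against 146, 135 and 141 CPM in the parental line (log2 fold change 2.14, SE 0.044) and KRT13, a keratin of internal stratified epithelia, at 22.3, 19.4 and 20.9 CPM in the clone, against 3.14, 3.67 and 2.65 CPM in the parental line (log2 fold change 2.72, SE 0.11). Keratin genes have close paralogs, so reads may be split between them. For these 5 genes, Benjamini-Hochberg adjusted p from the edgeR quasi-likelihood test was at most 4.9e-13.

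The factors of intestinal identity were split. Of 18 on the list, 13 were tested, 7 fell and 4 rose, with a median of -0.39. HNF4A, the nuclear receptor that drives enterocyte genes, stood at 1.44, 1.08 and 1.48 CPM in the clone, against 93.3, 98.1 and 94.3 CPM in the parental line (log2 fold change -6.17, SE 0.085). HNF4G had 2 reads in all clone libraries together, against 790 in the parental ones, a parental over clone ratio of 387 (95% counting interval 107 to 3198). MYB, a factor of crypt progenitors, stood at 3.19, 3.09 and 3.32 CPM in the clone, against 33.8, 29.1 and 30.8 CPM in the parental line (log2 fold change -3.30, SE 0.096).

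Other gut factors were higher. CDX2, the homeobox factor of intestinal identity, stood at 54.4, 45.9 and 49.6 CPM in the clone, against 23.95, 24.4 and 27.2 CPM in the parental line (log2 fold change 0.97, SE 0.069), and PDX1, a factor of duodenum and pancreas, at 7.95, 6.89 and 6.60 CPM in the clone, against 1.54, 1.62 and 1.65 CPM in the parental line (log2 fold change 2.14, SE 0.15). VDR, the vitamin D receptor gene, stood at 57.7, 59.2 and 53.4 CPM in the clone, against 14.3, 16.8 and 14.7 CPM in the parental line (log2 fold change 1.89, SE 0.067). CDX1, the paralog of CDX2, was listed only in the parental table, at 0.467 CPM. In the EGFP clone HNF4A was at 2.09 ± 0.171 and CDX2 at 61.3 ± 0.509 CPM. The adjusted p of the called genes of the 2 paragraphs was at most 8.9e-10 (edgeR quasi-likelihood test, Benjamini-Hochberg).

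Genes that absorptive and secretory cells use were mostly lower where they could be tested. Of 36 enterocyte and brush border genes, 17 were tested, of which 13 fell, 12 at least 2-fold, and 2 rose, with a median of -3.06. USH1C, which encodes harmonin, a scaffold of the links between microvilli, stood at 2.44, 2.85 and 1.86 CPM in the clone, against 102, 96.3 and 100.8 CPM in the parental line (log2 fold change -5.39, SE 0.091), and EPS8, an actin capping and bundling protein, at 6.45, 6.60 and 5.73 CPM in the clone, against 112, 105 and 105 CPM in the parental line (log2 fold change -4.11, SE 0.068). EZR, the linker of membrane and actin in microvilli and elsewhere, was higher at 416, 410.2 and 402 CPM in the clone, against 171, 186 and 183 CPM in the parental line (log2 fold change 1.17, SE 0.041). Of the members not tested, 8 were listed in both tables at low counts.

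Of 26 goblet and secretory genes, 12 were tested, of which 8 fell, all at least 2-fold, and 2 rose, with a median of -3.30. The membrane mucin gene MUC13 stood at 0.188, 0.0528 and 0.164 CPM in the clone, against 24.4, 26.4 and 25.1 CPM in the parental line (log2 fold change -7.56, SE 0.18). The gel-forming mucin gene MUC5B had 4 reads over the clone libraries, against 352 over the parental ones (log2 fold change -6.33, SE 0.44). DEFA5, a Paneth cell defensin, had 2 reads in the clone, against 1009 in the parental line, a parental over clone ratio of 494 (95% counting interval 136 to 4084). TFF3, the trefoil peptide of goblet cells, was listed only in the parental table, with 18.6, 17.4 and 19.7 CPM in DMSO. MUC12, a transmembrane mucin gene, was higher at 2.66, 1.82 and 2.11 CPM in the clone, against 0.186, 0.0622 and 0.103 CPM in the parental line (log2 fold change 4.14, SE 0.37). By the edgeR quasi-likelihood test with Benjamini-Hochberg adjustment, the called genes had adjusted p of at most 1.7e-08.

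Wnt target and stem cell genes went both ways. Of 28, 26 were tested, with 14 higher and 10 lower, and a median of 0.40. LGR5, the R-spondin receptor that marks crypt stem cells, stood at 0.0939, 0.106 and 0.0274 CPM in the clone, against 3.99, 3.39 and 3.35 CPM in the parental line (log2 fold change -5.52, SE 0.34). SMOC2, a matrix protein of the same cells, had 3 reads in the clone, against 1107 in the parental line, a parental over clone ratio of 361 (95% counting interval 123 to 1754). The secreted Wnt antagonist NOTUM stood at 69.9, 61.5 and 64.8 CPM in the clone, against 541, 525 and 549.9 CPM in the parental line (log2 fold change -3.05, SE 0.05). The cell adhesion receptor CD44 was higher at 233, 242 and 245 CPM in the clone, against 48.6, 45.2 and 45.6 CPM in the parental line (log2 fold change 2.36, SE 0.049), as were MSI1, an RNA-binding protein of progenitors, at 11.4, 9.77 and 9.95 CPM in the clone, against 0.771, 0.840 and 0.825 CPM in the parental line (log2 fold change 3.66, SE 0.15) and the receptor gene TNFRSF19 at 67.7, 70.3 and 68.6 CPM in the clone, against 15.9, 11.8 and 13.8 CPM in the parental line (log2 fold change 2.29, SE 0.081). AXIN2 and LEF1, direct targets of beta-catenin named here after their values were seen, rose by 1.18 (SE 0.037) and 1.95 (SE 0.053) on the log2 scale, while the stem cell factor gene ASCL2 had a log2 fold change of -1.64 (SE 0.055). Of the AXIN2 exon length 25.2% overlaps other genes. The EGFP clone held 129 ± 13.3 CPM of NOTUM and 0.258 ± 0.155 CPM of LGR5. The adjusted p was at most 1.1e-10 (edgeR quasi-likelihood test, Benjamini-Hochberg).

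Mesenchymal structure and matrix genes were higher in most cases. Of 40, 35 were tested, 25 rose, 22 of them at least 2-fold, and 8 fell, 4 of them at least 2-fold, with a median of 1.66. WNT5A, a secreted ligand of cell movement and polarity, stood at 226, 222 and 224 CPM in the clone, against 1.41, 1.96 and 0.696 CPM in the parental line (log2 fold change 7.39, SE 0.12). SPARC, a secreted collagen-binding protein, stood at 12.3, 13.4 and 13.3 CPM in the clone, against 0.133, 0.187 and 0.180 CPM in the parental line (log2 fold change 6.25, SE 0.19), and the gelatinase gene MMP2 at 6.26, 7.03 and 8.25 CPM in the clone, against 0.292, 0.311 and 0.180 CPM in the parental line (log2 fold change 4.77, SE 0.23). SPARC and MMP2 were under 1 CPM in each parental library.

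Further genes of the list, named after their values were seen, were the fibronectin gene FN1 at 104, 115 and 111 CPM in the clone, against 6.49, 7.81 and 5.41 CPM in the parental line (log2 fold change 4.07, SE 0.087) and CDH11, a cadherin of mesenchymal cells, at 131, 133 and 134 CPM in the clone, against 6.54, 7.06 and 7.27 CPM in the parental line (log2 fold change 4.24, SE 0.058). CDH2, the N-cadherin gene of the classical cadherin switch, was not listed in the clone table and was at 0.0450 CPM in the parental line. COL4A1, a chain of basement membrane collagen, was lower at 0.125, 0.211 and 0.0548 CPM in the clone, against 98.6, 118 and 105 CPM in the parental line (log2 fold change -9.64, SE 0.14). The gene of its partner chain, COL4A2, had a log2 fold change of -0.42 (SE 0.051). TAGLN, an actin-binding protein of smooth muscle, and LOX, a collagen crosslinking enzyme, had log2 fold changes of -1.64 (SE 0.11) and -1.56 (SE 0.25). The summed level of the tested list ran from 2409.7 to 2482 CPM in the clone, against 900.4 to 969 CPM in the parental line. For the genes named from this list, Benjamini-Hochberg adjusted p from the edgeR quasi-likelihood test was at most 2.3e-05.

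The transcription factors that drive epithelial to mesenchymal transition moved in both directions. Of 17, 14 were tested, 6 rose and 7 fell, with a median of -0.22. ZEB1, a repressor of CDH1, stood at 17.8, 18.7 and 18.96 CPM in the clone, against 7.18, 6.75 and 6.83 CPM in the parental line (log2 fold change 1.40, SE 0.086), and FOXC1, a forkhead factor of mesenchyme, at 52.4, 49.8 and 48.5 CPM in the clone, against 14.4, 18.8 and 14.2 CPM in the parental line (log2 fold change 1.67, SE 0.083). SNAI2 and SNAI1, repressors of the same target, were lower, SNAI2 at 1.44, 1.16 and 0.767 CPM in the clone, against 14.9, 18.3 and 17.3 CPM in the parental line (log2 fold change -3.93, SE 0.16) and SNAI1 at 3.41, 3.25 and 2.71 CPM in the clone, against 7.42, 8.09 and 9.07 CPM in the parental line (log2 fold change -1.40, SE 0.13). PRRX1, a homeobox factor of limb mesenchyme, stood at 2.35, 1.90 and 2.19 CPM in the clone, against 10.4, 17.5 and 12.3 CPM in the parental line (log2 fold change -2.65, SE 0.18). GSC, an organiser homeobox gene, had 78 reads in the clone, against 2 in the parental line, a clone over parental ratio of 39.8 (95% counting interval 10.7 to 335). ZEB2 and TWIST2 were listed but too low to test, and TWIST1 was not listed in the clone table. The adjusted p was at most 4.8e-08 for the 5 genes given with a log2 fold change (edgeR quasi-likelihood test, Benjamini-Hochberg).

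Integrins, the receptors that tie cells to matrix, also moved in both directions. Of 17 tested, out of 22, 11 rose and 6 fell, with a median of 0.76. ITGB5, a vitronectin receptor chain, stood at 1090.3, 1073 and 1002 CPM in the clone, against 94.7, 106 and 95.7 CPM in the parental line (log2 fold change 3.41, SE 0.048), ITGA3, a laminin receptor chain, at 442, 441 and 422 CPM in the clone, against 48.2, 59.9 and 46.8 CPM in the parental line (log2 fold change 3.07, SE 0.068) and ITGA7 at 121, 119 and 116 CPM in the clone, against 22.5, 19.96 and 21.2 CPM in the parental line (log2 fold change 2.47, SE 0.055). The beta chains of other pairs fell, ITGB6 at 0.720, 0.792 and 0.767 CPM in the clone, against 10.3, 11.3 and 11.01 CPM in the parental line (log2 fold change -3.84, SE 0.15) and ITGB8 at 0.250, 0.528 and 0.329 CPM in the clone, against 2.37, 2.18 and 1.62 CPM in the parental line (log2 fold change -2.45, SE 0.31). ITGB7 fell too, with a log2 fold change of -5.53 (SE 0.23), but 42.1% of its exon length overlaps other genes, ZNF740 the most. The adjusted p was at most 1.4e-06 (edgeR quasi-likelihood test, Benjamini-Hochberg).

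Genes of dense-core secretory granules included some of the largest rises. Of 24 neuroendocrine and enteroendocrine genes, 12 were tested, 7 rose and 4 fell, all 11 at least 2-fold, with a median of 3.43. VGF, a granin-like precursor of secreted peptides, stood at 2353, 2134 and 1920.0 CPM in the clone, against 11.2, 17.4 and 13.5 CPM in the parental line (log2 fold change 7.24, SE 0.11). CHGA, the chromogranin A gene and a clinical marker of neuroendocrine tumours, stood at 178, 174 and 156 CPM in the clone, against 0.505, 0.560 and 0.438 CPM in the parental line (log2 fold change 8.39, SE 0.097), and SCG3, a granin that sorts cargo into granules, at 65.03, 63.7 and 65.4 CPM in the clone, against 0.213, 0.840 and 0.258 CPM in the parental line (log2 fold change 7.26, SE 0.16). For all 3 the clone libraries lay far above the parental range.

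CHGB and PCSK1, named after their values were seen, were higher as well. CHGB, the second chromogranin, stood at 92.2, 90.3 and 84.4 CPM in the clone, against 0.585, 0.777 and 0.644 CPM in the parental line (log2 fold change 7.05, SE 0.093), and PCSK1, a protease that cuts prohormones in granules, at 28.4, 28.8 and 29.2 CPM in the clone, against 0.718, 0.964 and 0.516 CPM in the parental line (log2 fold change 5.30, SE 0.13). Not all genes of this pathway were higher. CPE, which trims the cut peptides, stood at 0.908, 1.00 and 0.575 CPM in the clone, against 11.5, 15.3 and 14.2 CPM in the parental line (log2 fold change -4.05, SE 0.17), and SCG5, a chaperone of the related protease PCSK2, at 0.344, 0.211 and 0.575 CPM in the clone, against 3.27, 2.71 and 3.30 CPM in the parental line (log2 fold change -3.04, SE 0.29). The EGFP clone held 1992 ± 93.1 CPM of VGF, 156 ± 11.8 of CHGA and 1.58 ± 0.169 of CPE. Hormone genes were scarce, since GAST was at 0.167 CPM in the clone and 0.849 CPM in the parental line, and PYY, CCK and NTS were untested or not listed in 1 table. The factor INSM1, a marker of neuroendocrine cells, was not listed in the clone table and was at 0.395 CPM in the parental line. The adjusted p of the called genes was at most 3.9e-08 (edgeR quasi-likelihood test, Benjamini-Hochberg).

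The promoters of 3 of these granule genes are printed because each holds TGACGTCA, the palindromic cyclic AMP response element bound by factors of the CREB family, shown in capitals. This motif, and these genes, were chosen after values and matches were seen. The motif, searched in the same 300-base windows, was present in 540 of 27305 promoters, 1.98%, and in 4 of 20 promoters of the neuroendocrine list, those of CHGA, PCSK1, VGF and SST, of which SST was listed in neither table. In other lists it was present in 4 of 41 G2/M, 2 of 21 neural transcription factor, 4 of 44 neural adhesion and 2 of 35 synaptic vesicle promoters, and in that of MUC13, which fell. A looser spelling, TGACGTNA, which includes it, was searched too and gave 867 promoters (3.18%) and the same count of 4 of 20 in the list. The first motif base lies at -54 in CHGA, -79 in VGF and -77 in PCSK1. The CHGA promoter also holds a CACCTG, which is left in small letters. CHGB and SCG2 have no entry in the table, and the promoters of CLDN7 and VIM, which hold no CACCTG, and CPLX2, which holds no TGACGTCA, were also looked at and are not printed.
CHGA, chr14:92922900-92923149, plus strand: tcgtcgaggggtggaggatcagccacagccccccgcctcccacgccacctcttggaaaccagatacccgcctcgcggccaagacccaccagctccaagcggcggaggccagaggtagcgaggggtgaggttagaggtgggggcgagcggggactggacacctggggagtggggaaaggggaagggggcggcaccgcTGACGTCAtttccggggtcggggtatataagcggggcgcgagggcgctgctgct
VGF, chr7:101165570-101165819, minus strand: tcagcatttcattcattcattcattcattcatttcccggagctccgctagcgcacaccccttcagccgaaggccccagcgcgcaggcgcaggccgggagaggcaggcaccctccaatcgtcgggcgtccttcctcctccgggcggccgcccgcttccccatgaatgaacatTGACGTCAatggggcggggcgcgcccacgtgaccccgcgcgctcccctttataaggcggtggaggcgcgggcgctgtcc
PCSK1, chr5:96433249-96433498, minus strand: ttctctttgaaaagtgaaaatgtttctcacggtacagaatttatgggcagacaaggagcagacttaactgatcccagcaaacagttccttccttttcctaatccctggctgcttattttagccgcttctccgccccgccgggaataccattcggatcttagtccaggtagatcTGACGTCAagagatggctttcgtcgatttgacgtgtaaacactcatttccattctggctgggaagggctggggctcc

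Most synaptic vesicle release genes were higher. Of 46, 38 were tested, 30 rose, 23 of them at least 2-fold, and 7 fell, 5 of them at least 2-fold, with a median of 1.43. UNC13A, which primes vesicles for fusion, stood at 202, 208 and 202 CPM in the clone, against 0.744, 1.18 and 1.01 CPM in the parental line (log2 fold change 7.70, SE 0.083). SV2C, a vesicle glycoprotein gene, had 234 reads in the clone, against 3 in the parental line, a clone over parental ratio of 79.7 (95% counting interval 26.9 to 389). Core parts of the machinery, named after their values were seen, were also higher. They were SNAP25, a SNARE protein, at 36.01, 35.5 and 37.02 CPM in the clone, against 1.12, 0.622 and 1.13 CPM in the parental line (log2 fold change 5.20, SE 0.13), SYN1, which tethers vesicles to actin, at 52.04, 47.5 and 46.8 CPM in the clone, against 2.66, 2.18 and 2.14 CPM in the parental line (log2 fold change 4.37, SE 0.092) and SYP, the vesicle protein synaptophysin, at 169, 169.5 and 159 CPM in the clone, against 17.7, 20.96 and 19.6 CPM in the parental line (log2 fold change 3.09, SE 0.057).

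The calcium sensors were split. SYT1, the sensor of fast release, stood at 19.5, 19.6 and 20.9 CPM in the clone, against 184, 207 and 189 CPM in the parental line (log2 fold change -3.28, SE 0.055), and DOC2B, a high-affinity sensor, at 0.751, 0.660 and 0.986 CPM in the clone, against 97.6, 101.2 and 101.3 CPM in the parental line (log2 fold change -6.97, SE 0.091), while SYT5, a related synaptotagmin named after its values were seen, was higher at 5.39, 4.73 and 5.01 CPM in the clone, against 0.266, 0.218 and 0.593 CPM in the parental line (log2 fold change 3.75, SE 0.26). In the EGFP clone UNC13A was at 167 ± 11.5, SYT1 at 31.6 ± 1.84 and DOC2B at 0.879 ± 0.223 CPM. The summed level of the tested list ran from 2122 to 2204 CPM in the clone, against 698 to 739 CPM in the parental line. A large part of this difference came from the marker CPLX2, which is in the list, with means of 747 CPM in the clone and 6.28 CPM in the parental line. UNC13A had means of 204 and 0.977 CPM. By the edgeR quasi-likelihood test with Benjamini-Hochberg adjustment, the genes given with a log2 fold change had adjusted p of at most 6e-10.

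**Figure D4:**
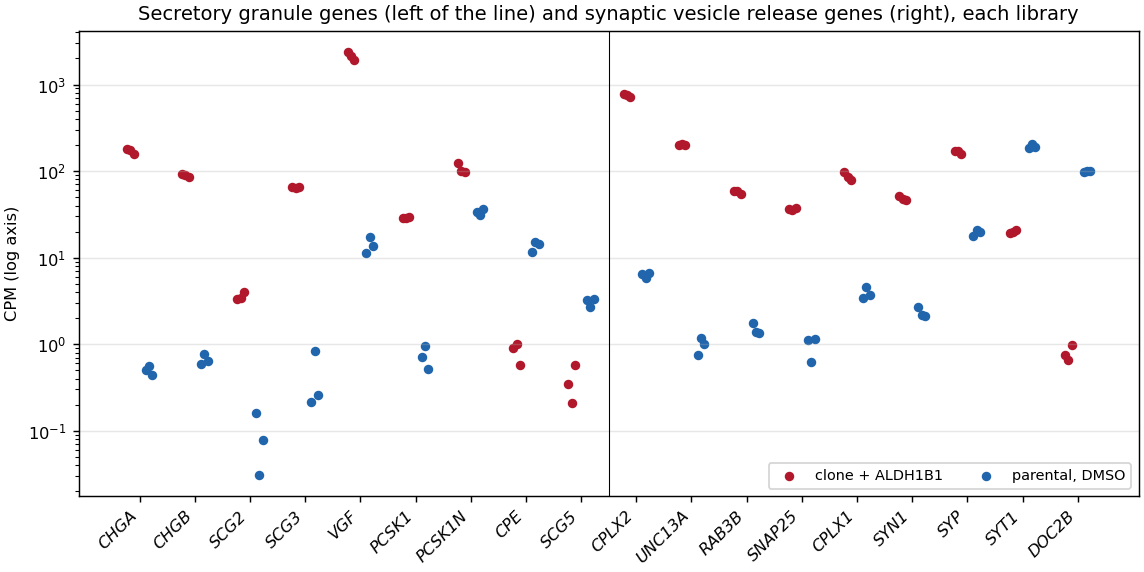
Level in CPM (log axis) of 9 secretory granule genes, left of the line, and 9 synaptic vesicle release genes, right of it, in each clone library (red) and each parental DMSO library (blue), with genes picked after their values were seen to show both directions. CHGA, CHGB, SCG3 and VGF were at 63.7 CPM or more in each clone library and at 17.4 CPM or less in each parental one, while CPE, SCG5, SYT1 and DOC2B were lower in the clone.

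Other neuronal genes were mixed. Of 41 cytoskeleton and RNA-binding genes, 29 were tested, 19 rose and 8 fell, with a median of 0.81. DCLK1, a microtubule-binding kinase that marks tuft cells in the mouse gut, stood at 440.2, 444 and 433 CPM in the clone, against 13.7, 21.9 and 16.8 CPM in the parental line (log2 fold change 4.65, SE 0.098), and DPYSL5, a regulator of axon growth, at 58.6, 52.99 and 58.3 CPM in the clone, against 3.30, 2.80 and 2.40 CPM in the parental line (log2 fold change 4.31, SE 0.094). NOVA2, a neuronal splicing factor, stood at 3.29, 3.57 and 2.69 CPM in the clone, against 0.0266, 0.0622 and 0.0773 CPM in the parental line (log2 fold change 5.75, SE 0.36). MAP2, the dendritic microtubule protein, had 3 reads in the clone, against 1632 in the parental line, a parental over clone ratio of 533 (95% counting interval 182 to 2585). BASP1, a growth cone protein, stood at 0.250, 0.185 and 0.0548 CPM in the clone, against 4.97, 4.76 and 5.23 CPM in the parental line (log2 fold change -4.94, SE 0.29).

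Of 56 channel and transmitter receptor genes, 36 were tested, 17 rose and 16 fell, with a median of 0.45. CHRNB2, a nicotinic receptor subunit, stood at 64.3, 64.96 and 59.8 CPM in the clone, against 1.75, 1.27 and 1.34 CPM in the parental line (log2 fold change 5.41, SE 0.096), and KCNC1, a fast potassium channel, at 23.4, 20.8 and 21.8 CPM in the clone, against 0.505, 0.653 and 0.851 CPM in the parental line (log2 fold change 5.01, SE 0.14). The sodium channel gene SCN9A had 4 reads over the clone libraries, against 2610 over the parental ones (log2 fold change -9.21, SE 0.30), and SCN1A had 5 reads in the clone, against 620 in the parental line (log2 fold change -6.83, SE 0.40).

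Of 28 neural transcription factors, 12 were tested, 4 rose and 7 fell, with a median of -0.45. ISL1, a factor of motor neurons and endocrine cells, stood at 7.48, 6.71 and 5.97 CPM in the clone, against 0.346, 0.311 and 0.335 CPM in the parental line (log2 fold change 4.31, SE 0.21). MYT1, a zinc finger factor of neural and endocrine precursors, stood at 1.97, 2.32 and 1.81 CPM in the clone, against 153, 134 and 147 CPM in the parental line (log2 fold change -6.16, SE 0.088) and POU3F2, a factor of neuronal fate, at 0.689, 0.660 and 0.466 CPM in the clone, against 19.2, 18.2 and 19.4 CPM in the parental line (log2 fold change -4.98, SE 0.14). REST, the repressor of neuronal genes outside the nervous system, stood at 64.4, 67.7 and 69.8 CPM in the clone, against 48.4, 55.2 and 53.00 CPM in the parental line (log2 fold change 0.36, SE 0.055). For the genes given with a log2 fold change in the 3 neuronal lists, Benjamini-Hochberg adjusted p from the edgeR quasi-likelihood test was at most 1.5e-05.

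Axon guidance and neural adhesion genes went both ways, with receptors and adhesion molecules among the largest falls. Of 41 guidance genes tested, out of 50, 23 fell, 16 of them at least 2-fold, and 16 rose, 11 of them at least 2-fold, with a median of -0.46. ROBO2, the second SLIT receptor, had 3 reads in the clone, against 5317 in the parental line, a parental over clone ratio of 1735 (95% counting interval 593 to 8416). The third receptor of the family, ROBO3, moved the other way at 5.67, 5.68 and 5.64 CPM in the clone, against 0.452, 0.124 and 0.541 CPM in the parental line (log2 fold change 3.86, SE 0.26). SEMA3D, a secreted repellent, stood at 0.125, 0.0264 and 0.137 CPM in the clone, against 16.1, 14.6 and 13.4 CPM in the parental line (log2 fold change -7.24, SE 0.23), and UNC5A, a netrin receptor, at 23.8, 22.5 and 20.7 CPM in the clone, against 1.73, 2.52 and 1.70 CPM in the parental line (log2 fold change 3.50, SE 0.12).

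Of 53 neural adhesion genes, 28 were tested, 13 fell, all at least 2-fold, and 11 rose, 10 of them at least 2-fold, with a median of -0.46. A further 11 were listed only in the parental table and 1 only in the clone table. Most of their levels were low, since the parental sum was 420 to 471 CPM over tested members and 425 to 476 CPM over all members. DSCAM, an immunoglobulin superfamily adhesion molecule, had no read in the clone and 334 in the parental line, at least 109-fold lower when 3 reads over the 3 clone libraries are taken as the floor. CHL1, a close homolog of L1CAM, had 2 reads in the clone, against 1743 in the parental line, a parental over clone ratio of 853 (95% counting interval 236 to 7050.3). NTM, a glycolipid-anchored adhesion molecule, was higher at 23.01, 22.3 and 24.3 CPM in the clone, against 0.718, 0.746 and 0.773 CPM in the parental line (log2 fold change 4.94, SE 0.12), as were NFASC, an adhesion molecule of the axon initial segment, at 17.6, 16.9 and 17.2 CPM in the clone, against 0.771, 1.31 and 0.748 CPM in the parental line (log2 fold change 4.20, SE 0.15) and the teneurin gene TENM2 at 46.8, 47.6 and 48.6 CPM in the clone, against 5.61, 7.09 and 4.59 CPM in the parental line (log2 fold change 3.05, SE 0.10). The adjusted p of the genes given with a log2 fold change was at most 5.4e-10 in the guidance and adhesion lists (edgeR quasi-likelihood test, Benjamini-Hochberg).

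Of the markers of other cell types, most were too low to test, and a few were read at over 10 CPM. Of 10 fibroblast markers 2 were tested, PDGFRB and FBLN1, both higher in the clone, FBLN1 at 18.5, 17.9 and 18.2 CPM in the clone, against 3.56, 2.55 and 2.06 CPM in the parental line, and the summed level of the list ran from 23.7 to 25.7 CPM in the clone, against 10.5 to 12.6 CPM in the parental line. LUM, a fibroblast proteoglycan gene, was listed only in the parental table, at 7.60, 6.28 and 7.17 CPM, and DCN, COL14A1 and FAP were under 1 CPM in each group. Of 11 endothelial markers 2 were tested and 1 rose, with sums of 7.26 to 8.82 CPM in the clone, against 1.62 to 2.07 CPM in the parental line. PECAM1, CDH5 and KDR, the defining endothelial genes, were under 1 CPM or not listed.

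Of 12 leukocyte markers 4 were tested, 1 rose and 2 fell, most of the level coming from CORO1A (18.2 ± 0.850 CPM in the clone, against 32.4 ± 3.75 CPM in the parental line) and LYN, with sums of 38.8 to 40.97 CPM in the clone, against 50.4 to 54.6 CPM in the parental line. PTPRC, the defining leukocyte gene, was not listed in the clone table and was at 0.289 CPM in the parental line. Of 11 glial and melanocyte markers 4 were tested, 2 rose and 2 fell, with sums of 23.2 to 24.7 CPM in the clone, against 73.2 to 87.3 CPM in the parental line, led by MBP at 12.96, 12.6 and 12.3 CPM in the clone, against 67.6, 81.4 and 73.5 CPM in the parental line, and SOX10 and S100B were at or near 0. The part of these levels in the other results was not tested.

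HOX genes lie in 4 clusters and record position along the body axis. Of 34 tested, out of 39, 18 rose and 10 fell, with a median of 0.27. Grouped by cluster after the values were seen, all 9 tested HOXB genes, on chromosome 17, rose, and 8 of 11 tested HOXA genes, on chromosome 7, fell. Genes around these clusters shifted the same way. The median log2 fold change was 0.70 over 283 genes at 40 to 60 Mb of chromosome 17. It was -0.83 over 96 genes at 20 to 40 Mb of chromosome 7. Whether the HOX genes differ from their neighbours was not tested. HOXB8 stood at 299, 295 and 283 CPM in the clone, against 17.04, 16.7 and 17.1 CPM in the parental line (log2 fold change 4.10, SE 0.049), and HOXD10 at 8.86, 8.56 and 8.96 CPM in the clone, against 0.930, 0.808 and 0.670 CPM in the parental line (log2 fold change 3.44, SE 0.16). HOXA3 was lower at 6.70, 6.10 and 5.97 CPM in the clone, against 33.1, 27.02 and 28.4 CPM in the parental line (log2 fold change -2.25, SE 0.095), and HOXA9 had a log2 fold change of -1.25 (SE 0.06), with 27.04% of its exon length overlapping other genes, HOXA10-AS the most. The adjusted p of these 4 was at most 4.7e-12 (edgeR quasi-likelihood test, Benjamini-Hochberg).

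Interferon-induced genes were split. Of 31 tested, out of 37, 12 rose and 13 fell, with a median of -0.14. These counts are near the shares over all genes tested, 38.9% higher and 39.2% lower. IFIH1, the sensor of long double-stranded RNA, stood at 2.66, 3.12 and 2.63 CPM in the clone, against 26.6, 26.6 and 27.2 CPM in the parental line (log2 fold change -3.26, SE 0.094), and DDX60, a helicase of the same response, had 4 reads in the clone, against 447 in the parental line (log2 fold change -6.67, SE 0.40). IFITM3, a membrane protein that blocks virus entry, stood at 220.3, 219 and 208 CPM in the clone, against 2.23, 4.54 and 4.15 CPM in the parental line (log2 fold change 5.89, SE 0.12). IFITM1 stood at 57.4, 56.98 and 60.01 CPM in the clone, against 0.133, 0.404 and 0.0258 CPM in the parental line (log2 fold change 8.33, SE 0.18) and IFITM2 at 241, 229 and 229 CPM in the clone, against 27.99, 26.9 and 29.2 CPM in the parental line (log2 fold change 3.04, SE 0.049). The 3 are close paralogs and 32.5% of the IFITM1 exon length overlaps other genes, IFITM2 the most, so their split is uncertain.

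Most genes of antigen presentation were higher. Of 18 genes of class I antigen presentation, all tested, 13 rose and 3 fell, with a median of 0.63. HLA-B stood at 83.4, 81.5 and 79.5 CPM in the clone, against 23.2, 25.4 and 23.02 CPM in the parental line (log2 fold change 1.76, SE 0.053) and the immunoproteasome subunit gene PSMB8 at 24.4, 22.2 and 22.7 CPM in the clone, against 7.04, 7.15 and 7.40 CPM in the parental line (log2 fold change 1.67, SE 0.08), while the peptide trimming enzyme gene ERAP1 was lower at 17.8, 19.6 and 17.6 CPM in the clone, against 49.3, 55.5 and 51.97 CPM in the parental line (log2 fold change -1.52, SE 0.064). Counting in the HLA region can split reads between paralogs, and 20.6% of the PSMB8 exon length overlaps other genes, PSMB8-AS1 the most. By the edgeR quasi-likelihood test with Benjamini-Hochberg adjustment, the interferon-induced and antigen presentation genes named had adjusted p of at most 7.9e-11.

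Cell cycle genes were higher by moderate amounts. Of 44 genes of G1/S and DNA replication, all tested, 39 rose, 19 of them at least 2-fold, and 2 fell, with a median of 0.86. The helicase subunit gene MCM4 stood at 571, 585 and 573 CPM in the clone, against 146, 153 and 148 CPM in the parental line (log2 fold change 1.94, SE 0.039) and the thymidine kinase gene TK1 at 282, 269 and 255 CPM in the clone, against 72.4, 67.9 and 67.4 CPM in the parental line (log2 fold change 1.94, SE 0.049), while RRM1, a ribonucleotide reductase subunit, was lower at 171, 169 and 176 CPM in the clone, against 212, 227 and 221 CPM in the parental line (log2 fold change -0.37, SE 0.041). Of 48 genes of G2/M and mitosis, all tested, 38 rose, 8 of them at least 2-fold, and 6 fell, with a median of 0.56. DLGAP5, a spindle protein, stood at 131, 131 and 137 CPM in the clone, against 44.2, 48.4 and 45.9 CPM in the parental line (log2 fold change 1.52, SE 0.047), and NEK2, a centrosome kinase, at 39.9, 40.4 and 42.1 CPM in the clone, against 64.7, 65.8 and 62.3 CPM in the parental line (log2 fold change -0.66, SE 0.051). The sources used here give no culture density or growth rate. Of 36 cancer-testis genes, normally read in the germ line, 3 were tested and all 3 fell. Their sum ran from 0.658 to 1.13 CPM in the clone, near the floor, against 30.8 to 31.3 CPM in the parental line. A further 9 were listed in both tables but too low to test, so the count gives no direction for the list. For the cell cycle genes named, Benjamini-Hochberg adjusted p from the edgeR quasi-likelihood test was at most 3.6e-07.

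The 10 largest rises were ranked among tested genes with a mean of at least 5 CPM, so genes listed in only 1 table could not enter. They included a granule priming factor, a ubiquitin ligase, a keratin and a chemokine. CADPS, which primes dense-core granules for release, had 76.3, 74.7 and 69.03 CPM in the clone and no read in the parental line, at least 2649.8-fold higher when 3 reads over the 3 parental libraries are taken as the floor. MARCHF4, a membrane-bound ubiquitin ligase, stood at 123, 116 and 117 CPM in the clone, against 0, 0.0933 and 0.155 CPM in the parental line (log2 fold change 10.41, SE 0.15). AMOTL1, an angiomotin family scaffold of cell junctions, had 2083 reads in the clone, against 4 in the parental line (log2 fold change 8.91, SE 0.24), and the sphingolipid synthesis gene SPTLC3 had 2646 in the clone, against 5 in the parental line (log2 fold change 8.97, SE 0.24). KRT71, a hair follicle keratin, stood at 87.7, 87.1 and 84.02 CPM in the clone, against 0.266, 0.0622 and 0.180 CPM in the parental line (log2 fold change 8.91, SE 0.13), and the chemokine gene CXCL14 at 42.3, 39.4 and 40.4 CPM in the clone, against 0.0266, 0.249 and 0.0516 CPM in the parental line (log2 fold change 8.59, SE 0.19). The other 4 rested on few parental reads. GGT5, a gamma-glutamyltransferase gene, had 2314 reads in the clone, against 2 in the parental line, a clone over parental ratio of 1182 (95% counting interval 327 to 9765). The proton channel gene OTOP1 had 1161 reads in the clone, against 1 in the parental line, a clone over parental ratio of 1186 (95% counting interval 212 to 46883). SEZ6, a neuronal membrane protein gene, had 1668 reads in the clone, against 3 in the parental line, a clone over parental ratio of 568 (95% counting interval 194 to 2757), and the noncoding MIR9-3HG had 1338 in the clone, against 3 in the parental line, a clone over parental ratio of 456 (95% counting interval 156 to 2212). The EGFP clone held 88.5 ± 0.793 CPM of CADPS, 91.6 ± 2.59 of MARCHF4 and 50.1 ± 3.44 of CXCL14.

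The 10 largest falls, ranked among the same tested genes, held VIL1 and ROBO2, described above. CLRN3, a tetraspan membrane protein gene, and PCP4, a calmodulin-binding peptide gene, had no read in the clone, against 2178 and 1333 reads in the parental line, at least 711-fold and at least 435-fold lower with the same floor over the clone libraries. PCDH19, a protocadherin of the brain, stood at 0, 0.132 and 0.0822 CPM in the clone, against 438, 338 and 388 CPM in the parental line (log2 fold change -12.28, SE 0.19). SSTR1, a somatostatin receptor gene, had 1 read in the clone, against 5621 in the parental line, a parental over clone ratio of 5503 (95% counting interval 987 to 217380.0). ADGRL2, a latrophilin receptor gene, had 2 reads in the clone, against 3879 in the parental line, a parental over clone ratio of 1899 (95% counting interval 525 to 15683). The matrix gene SMOC1 had 1 read in the clone, against 1627 in the parental line, a parental over clone ratio of 1593 (95% counting interval 285 to 62948). The noncoding MIR1-1HG-AS1 had 2 reads in the clone, against 4419 in the parental line, a parental over clone ratio of 2163 (95% counting interval 598 to 17866), and AC099792.1 had 1 read in the clone, against 1749 in the parental line, a parental over clone ratio of 1712 (95% counting interval 307 to 67665). In the EGFP clone PCDH19 was at 0.121 ± 0.0545 and SSTR1 at 0.0935 ± 0.0839 CPM. Among these rises and falls, the genes given with a log2 fold change had adjusted p of at most 2e-15 (edgeR quasi-likelihood test, Benjamini-Hochberg).

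Genes listed in only 1 table were left out of the fit and of the rankings of rises and falls above. An alternative fit took them as 0 reads where they were not listed. Of the 2853 listed only for the clone, 17 averaged 1 CPM or more, and of the 3664 listed only for the parental line, 80 did. The first set held ESM1, an endothelial secreted proteoglycan, at 38.04, 39.8 and 39.4 CPM, ACTL6B, a subunit of the neuronal chromatin remodeller, at 13.9, 12.4 and 12.8 CPM, and the natriuretic peptide gene NPPB at 12.6, 13.6 and 10.9 CPM in the clone. The second held the cardiac homeobox gene NKX2-5 at 22.97, 25.5 and 25.3 CPM, the nuclear receptor gene ESRRG at 26.4, 22.4 and 21.3 CPM and the sodium channel gene SCN3A at 19.99, 18.9 and 18.9 CPM in the parental line. These genes were picked after their values were seen.

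The difference between the clone and the parental line was also uneven along the genome. Over 14572 genes with a mean of at least 1 CPM, 42.4% were higher and 40.9% lower, and the median log2 fold change was 0.01. It was 0.61 on chromosome 3 (809 genes, 68.9% higher), 0.60 on chromosome 13 (262 genes, 66.4% higher) and 0.54 on chromosome 17 (943 genes, 68.7% higher). It was -0.78 on chromosome 18 (198 genes, 72.7% lower). Cut into windows of 20 Mb with at least 20 genes, 9 of 10 windows of chromosome 3 had a median above 0. So did 5 of 5 of chromosome 13 and 5 of 5 of chromosome 17. All windows had a median below 0 on chromosomes 18 (4 of 4), 4 (10 of 10), 20 (4 of 4) and 21 (2 of 2). Elsewhere windows below 0 were also frequent, as in 8 of 9 of chromosome 6 and 7 of 8 of chromosome 8, while 6 of 7 of chromosome 11 lay above 0. Between the clone and the EGFP clone the chromosome medians ran from -0.043 to 0.055. The medians are descriptions over genes, which are not replicates, and DNA copy number was not analysed here, so its part in these medians was not tested.

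**Figure D5:**
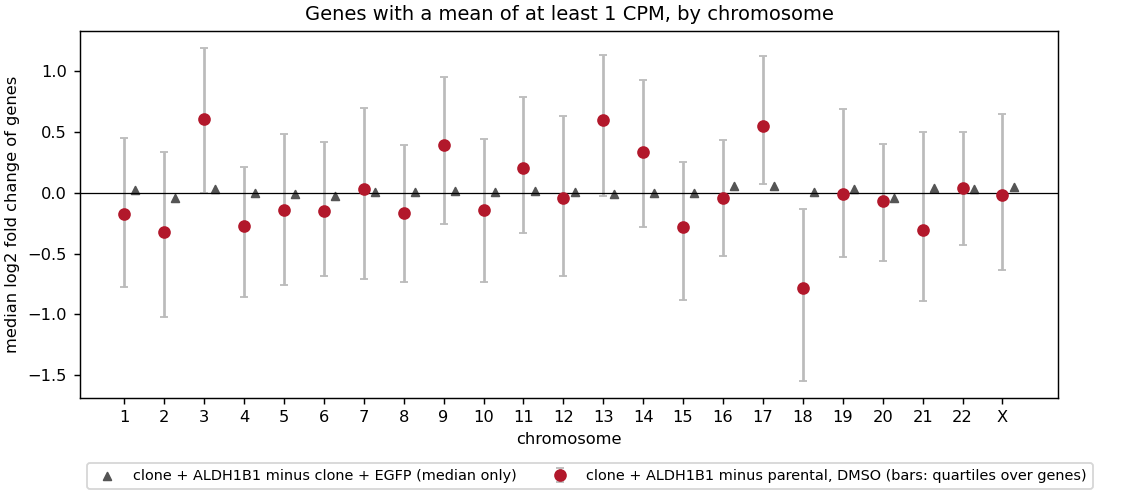
Median log2 fold change of genes by chromosome (y axis) for the clone with ALDH1B1 minus the parental line in DMSO, as red points with bars from the lower to the upper quartile over genes, and for the clone with ALDH1B1 minus the clone with EGFP, as grey triangles. Chromosomes 3, 13 and 17 lay above 0.5 and chromosome 18 below -0.7 in the first comparison, while the triangles stayed within 0.06 of 0.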

How the data were processed

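RNA-seq counts of 12 SW480 libraries were used as deposited: the authors gave 2 tables of whole read counts per gene, 1 for both states of the clone and 1 for the parental line, with gene names, positions and lengths. Per the submitters' processing notes, fastp, STAR and DESeq2 were used with hg38. No source used here names the counting tool, strand setting or annotation. All gene lengths and spans equal those of GENCODE 29. The tables also hold 24 per-sample columns that were not used, and 27 gene names that a spreadsheet had turned into dates were restored from gene IDs.

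The tables were joined by gene ID. Genes listed in both were filtered (filterByExpr, minimum count 10), scaled by TMM and tested with edgeR 4.0.16 (R 4.3.3, limma 3.58.1) by the quasi-likelihood test over 6 libraries with no covariate, and p-values were adjusted by Benjamini-Hochberg over all 18104 genes with a threshold of 0.05. A 2-fold call also needs a log2 fold change of 1 in size. Levels are CPM over all 12 libraries. Intervals of ratios are exact 95% intervals and, like the floor of 3 reads, cover counting error only. List medians were the same with genes at 0 reads in a group set to their bound. In simulated counts of 17752 genes, 68% of 100 genes changed 1.5-fold and 81% of 100 changed 2-fold were recovered. Of 164 calls 15 were false, a share above the threshold of 0.05. The comparison itself called 14137 of 18104 genes, many with larger changes than those simulated. Recovery, the threshold and TMM scaling were therefore not tested for changes in so large a share of genes. Alternatives were other size factors, no filter, DESeq2 1.42.0, a replicate block, 1 fit of all libraries, genes of either table and leaving out each library. Python 3.11.15 with pandas 2.3.3 and scipy 1.17.1 was used for tables.

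The comparison, its markers and the 28 gene lists were chosen with earlier results of these data known. The naming rule took ALDH1B1, the 5 markers, the 10 largest rises and falls, the 3 largest of each direction per list, and any tested regulator of epithelial, intestinal or mesenchymal state. Some genes that the rule names are not reported here, though the counts and medians of their lists include them. Named outside that rule, after their values were seen, were KRT8, KRT18, EPCAM, AP1M2, CRB3, TJP1, CTNNB1, CTNNA1, DSP, TFF3, AXIN2, LEF1, ASCL2, FN1, CDH11, COL4A2, CHGB, PCSK1, GAST, SNAP25, SYN1, SYP, SYT5, the genes listed in 1 table and the other cell type markers.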

Additional observations from a re-analysis of the deposited data

How the results depend on the processing

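The 4 genome-wide counts and the ALDH1B1 change kept their direction and stayed within 1.5 times under the 6 alternatives of processing. Genes higher in the clone numbered 6943 to 7479 and genes lower 6958 to 7531, with 3282 to 3751 at least 2-fold higher and 3328 to 3875 at least 2-fold lower, and ALDH1B1 changed by 1.01 to 1.02 on the log2 scale. Leaving out 1 library gave 6852 to 7159 higher, 6829 to 7250 lower, 3339 to 3433 at least 2-fold higher, 3387 to 3531 at least 2-fold lower, and 0.93 to 1.05 for ALDH1B1. No gene called in 1 direction was called in the other under any of them.

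The labels number the replicates in each group but do not say that a number pairs cultures. Deviations of same-numbered libraries correlated at -0.013, 0.049 and -0.17 over 11406 genes, so the numbers were not taken as pairs. With the replicate block, 6943 genes were higher and 6958 lower, 3299 and 3328 of them at least 2-fold, and ALDH1B1 changed by 1.02.

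Of 185 named genes other than ALDH1B1, all kept their direction and 181 their call. The exceptions were ESRP2 and EHF, described above, NLRC5 without clone replicate 1 (adjusted p = 0.055) and PRIM1 without clone replicate 2 (adjusted p = 0.0655, both edgeR quasi-likelihood test, Benjamini-Hochberg). Of 56 counts of higher or lower list members, 51 stayed within 1.5 times. The other 5 are small. Epithelial regulators higher numbered 1 in place of 2 without DMSO replicate 1. Brush border genes higher numbered 4 in place of 2 without DMSO replicate 2 and 1 without clone replicate 3. G1/S genes lower numbered 1 in place of 2 without clone replicate 2. Endothelial markers higher numbered 2 in place of 1 in 7 alternatives, and fibroblast markers lower 1 in place of 0 in 4. The cause of these changes was not tested. Depth limits genes near 0 in a group, where folds are bounds or ratios with wide intervals.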
